A study of Rattus norvegicus with 16 samples.

Results

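The effect of PMI-006 on gene expression after injury was examined on 6 of the 16 whole-hippocampus arrays of the series, 3 from TBI+PMI-006 rats and 3 from TBI rats. The arrays were taken by their titles, and no measured value entered the choice. Each array held the hippocampal RNA of 1 adult male Sprague-Dawley rat, collected 24 h after a severe fluid percussion injury, in which a pulse of fluid is delivered onto the surface of the brain. TBI+PMI-006 rats received 250 mg/kg of PMI-006 by oral gavage. PMI-006 is known here by its code name as an experimental neuroprotective compound. The sources used here do not state whether TBI rats received the gavage or a vehicle, or which of the 2 named RNA amplification kits was used for which rat. The injury and the anesthesia were shared by both groups, so this comparison concerns injured tissue on either side. For reference, values are also given for 3 TBI+JM6 rats (400 mg/kg by oral gavage), 2 TBI+E2 rats (33 ug/kg of 17β-estradiol, given subcutaneously according to the labels and intraperitoneally according to the methods), 3 Naïve rats with neither injury nor treatment and 2 Sham rats, which were prepared for the injury and not injured.

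The hippocampus holds the granule cells of the dentate gyrus and the pyramidal cells of the CA fields, which release glutamate, together with interneurons that release GABA. GABA-A receptors are chloride channels built from several subunits, mostly alpha, beta and gamma, and carry most fast inhibition in the brain. Synaptic vesicles store the transmitter, and a small set of proteins docks them at the membrane and fuses them with it. Brain injury is known to activate astrocytes, which then make more of the filament protein Gfap, and microglia, and to induce chemokines and acute phase proteins within a day. In bulk tissue, fewer cells of a type and less RNA per cell cannot be told apart. The tissue label was checked against markers. Mpped1, Wfs1 and Fibcd1 of the CA fields and C1ql2 of the dentate gyrus were above background on 3 of 3 TBI and 3 of 3 TBI+PMI-006 arrays, whereas the granule cell gene Prox1 was above background on 0 of 3 TBI and 3 of 3 TBI+PMI-006 arrays.

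All 8 arrays of drug-treated rats were scanned in one session and all 8 arrays of TBI, Sham and Naïve rats in another, as the file headers give them, so that drug and scanning session cannot be told apart in TBI+PMI-006 vs. TBI. Detection followed the session, with 16404 to 18217 of 30367 probes above background on the TBI arrays and 20259 to 22822 on the TBI+PMI-006 arrays. Each array also carries E1A control probes, whose targets are added to the labelling reaction and do not come from the rat. On the normalized scale, the 5 dimmer control probes differed by -0.54 to 1.23 (log2, TBI+PMI-006 minus TBI) and the 5 brighter ones by -0.25 to 0.38. The direction depended on the level. A control probe at 3.39 in TBI was 1.23 higher in TBI+PMI-006, those at 6.64 and 8.62 read -0.51 and -0.54, and that at 10.58 was 0.32 higher. Between TBI+PMI-006 and the other drug-treated rats, scanned together, the same probes differed by -0.11 to 0.24. Differences between TBI+PMI-006 and TBI are therefore given below with the rank of each gene among all probes tested, and how much of each is due to the session was not tested.

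**Figure D1:**
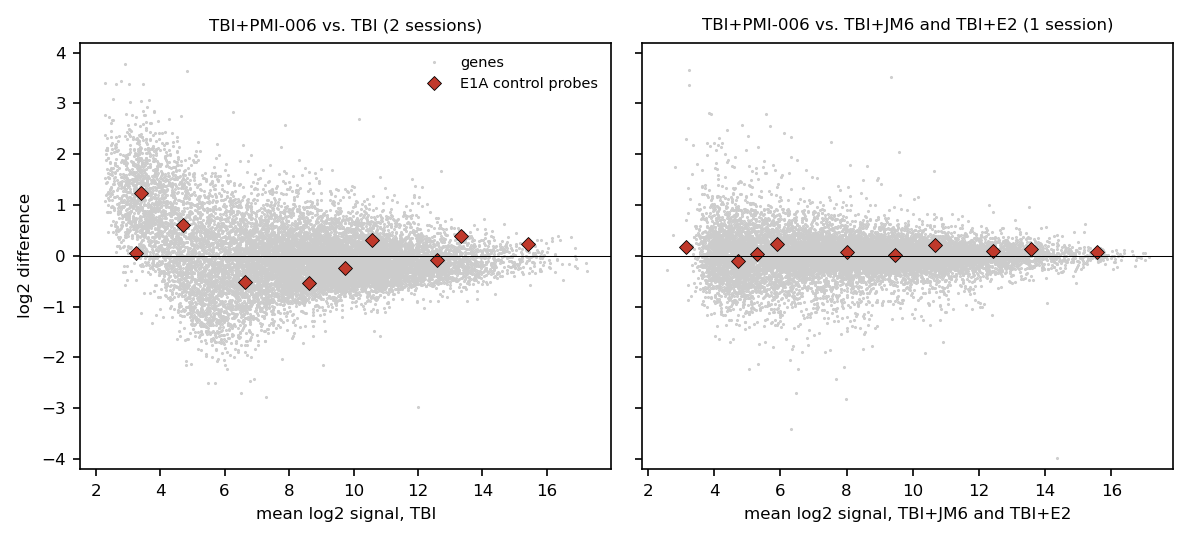
Difference in log2 signal against mean log2 signal for genes (grey, brightest probe of each) and for the E1A control probes (red), for TBI+PMI-006 vs. TBI on the left and for TBI+PMI-006 vs. the mean of TBI+JM6 and TBI+E2 on the right. Control probes spread from -0.54 to 1.23 on the left and from -0.11 to 0.24 on the right.

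A pair of arrays stood apart from the rest of their groups. Replicate 1 of TBI+PMI-006 was high in choroid plexus genes, whose tissue borders the hippocampus along the ventricle and makes the thyroxine carrier Ttr. Ttr had a log2 signal of 17.57, 13.20 and 7.83 on the TBI+PMI-006 arrays and of 12.67, 9.61 and 8.26 on the TBI arrays. The summed level of the 8 choroid plexus genes tested was 17.66, 13.25 and 8.78 in TBI+PMI-006, 12.77, 9.97 and 9.15 in TBI, 13.05 to 17.63 in Sham and 12.19 to 16.73 in Naïve rats. The same TBI+PMI-006 array was high in immediate early genes, which neurons switch on within minutes of activity, at a summed level of 15.43 against 12.80 and 12.76 for its group and 12.91 to 13.23 for TBI. Replicate 3 of TBI+JM6 reached 16.53 for these genes. Replicate 1 of TBI was low in acute injury genes, with a summed level of 15.05 against 16.69 and 16.69, where TBI+PMI-006 arrays read 16.13 to 16.55 and Sham arrays 13.36 to 13.68. For some gene lists, counts are also given without these arrays.

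**Figure D2:**
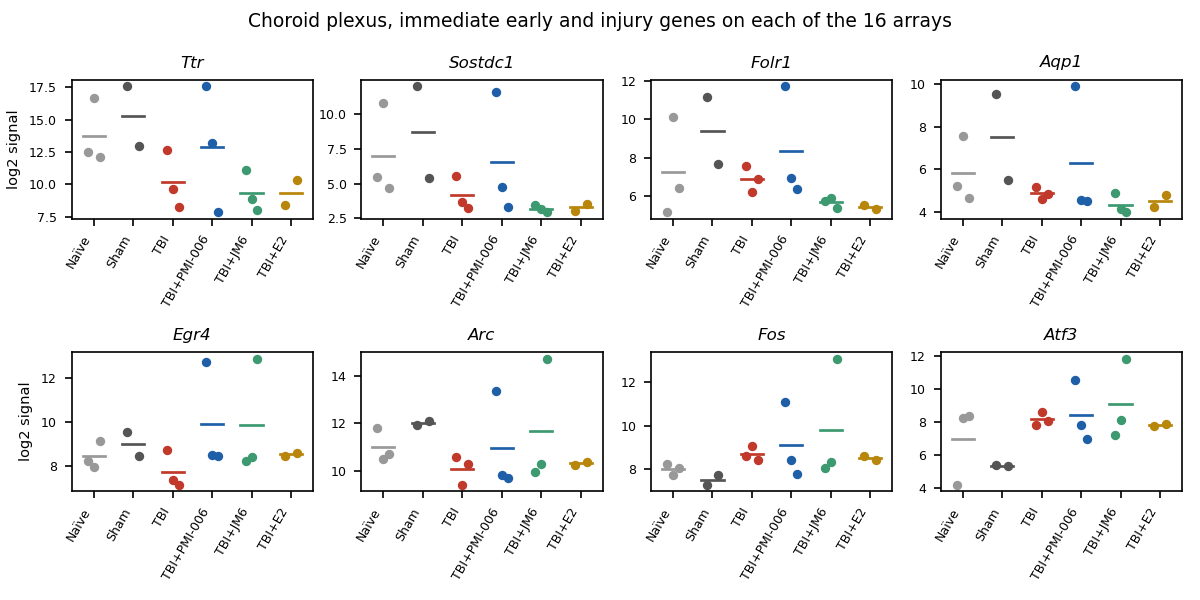
Normalized log2 signal of 4 choroid plexus genes (top), 3 immediate early genes and the injury gene Atf3 (bottom) on each of the 16 arrays, 1 point per rat, with a line at the mean of each group. Replicate 1 of TBI+PMI-006 is the highest point of its group in all 8 panels, and replicate 3 of TBI+JM6 is higher still for Egr4 (12.90), Arc (14.73), Fos (13.09) and Atf3 (11.82).

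In TBI+PMI-006 vs. TBI, 4377 of 22826 probes (19.2%) passed a limma test at a Benjamini-Hochberg adjusted p under 0.05, 2274 of them higher (9.96%) and 2103 lower (9.21%) in TBI+PMI-006 rats. Before adjustment 8032 probes had a p under 0.05, and 2104 of the called probes differed by more than 2-fold. The median log2 fold change was -0.015. The split depended on the filter for dim probes, which let in a probe that was above background in any 1 group. With no filter 2040 probes were higher and 2266 lower, at a median of -0.082, and among probes above background on all 16 arrays 1131 were higher and 1968 lower, at a median of -0.107. Counted by gene, with the brightest probe of each, 2385 of 13868 genes (17.2%) were called, 1011 higher (7.29%) and 1374 lower (9.91%), and the median was -0.072. Of the genes called higher, 412 were above background on no TBI array. Such a gene could be tested only because another group was high, so that counts of rises that hold such genes are a description and no support. Among the 11836 genes above background on at least 1 array of both groups, 599 were higher and 1318 lower. Array-to-array correlations were 0.962 to 0.977 within TBI, 0.971 to 0.983 within TBI+PMI-006 and 0.948 to 0.961 between these groups. Scaling each array to the 75th percentile of its detected probes, as in the methods of the study, moved the median of all probes to 0.789. The share of calls that were higher then became 99.9% in place of 52%, and it was 55.5% once changes were taken relative to that median, so directions below are relative to all probes.

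The 12 largest rises among genes that were above background on all 6 arrays, and whose groups did not overlap, included neuronal, secretory and glial genes, and those reported here are given below. Atp6v1e1, a subunit of the proton pump that acidifies vesicles and lysosomes, had a log2 signal of 9.18, 8.87 and 8.96 in TBI and 10.77, 10.78 and 10.61 in TBI+PMI-006, a log2 difference of 1.71 ± 0.124 (SE, limma adjusted p = 6.5e-05). Its replicates were tight in either group, and it had the lowest adjusted p of the 12. Chga, chromogranin A of dense core vesicles, was at 6.66, 6.45 and 7.07 in TBI and at 8.94, 8.51 and 8.32 in TBI+PMI-006 (1.86 ± 0.265, adjusted p = 0.00146). Pacsin1, which acts in the recycling of synaptic vesicle membrane, rose by 1.66 ± 0.271 (adjusted p = 0.00283), and its other probe rose by 1.75.

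Canx, the chaperone calnexin of the endoplasmic reticulum, read 7.58, 6.35 and 6.54 in TBI and 8.49, 8.82 and 9.12 in TBI+PMI-006 (1.98 ± 0.272, adjusted p = 0.00126). Rab14, a small GTPase of endosomal traffic, read 7.87, 7.57 and 8.12 in TBI and 9.60, 9.58 and 9.41 in TBI+PMI-006 (1.68 ± 0.274, adjusted p = 0.00282). Mgll, the lipase that degrades the endocannabinoid 2-AG, read 9.49, 7.74 and 8.28 against 10.18, 10.05 and 10.46 (1.72 ± 0.344, adjusted p = 0.00704). Both groups were apart for these genes, although replicate 1 of TBI was the highest of its group for Canx and Mgll. Tmsb10, a thymosin that binds actin monomers, was at 8.79, 9.60 and 9.56 in TBI and at 10.73, 10.89 and 11.40 in TBI+PMI-006 (1.69 ± 0.266, adjusted p = 0.00245). Gfap, the astrocyte filament protein (probe at chr10:92060835-92060894 of build rn4), was at 12.52, 12.86 and 12.77 in TBI and at 13.71, 14.14 and 15.30 in TBI+PMI-006 (1.66 ± 0.374, adjusted p = 0.0115), with means of 12.2 in Sham and 10.3 in Naïve rats. Cdk14, a cyclin-dependent kinase, and Spock3, an extracellular proteoglycan, rose by 1.88 ± 0.272 and 1.69 ± 0.466 (adjusted p = 0.00162 and 0.0266). The largest rise, of 2.18 ± 0.461 (adjusted p = 0.00895), was that of Kcng1, a potassium channel subunit that does not form channels on its own, at 6.93, 6.30 and 6.48 in TBI and 8.55, 8.05 and 9.65 in TBI+PMI-006. Its other probe differed by 0.14 (adjusted p = 0.855), so the rise was seen at 1 of 2 probes. With another background correction (normexp) the rises given here ranged from 1.06 to 1.66, and Kcng1, Canx, Cdk14, Spock3 and Rab14 shrank by more than 1.5 times, to 1.37, 1.31, 1.24, 1.12 and 1.06. The call of Spock3 was lost in 7 of 19 alternatives.

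The 12 largest falls began between 5.69 and 8.67 in TBI, where the E1A control probes at 6.64 and 8.62 also read -0.51 and -0.54. Several of the largest rises began in the same range. Cdk14, Kcng1, Chga, Canx, Spock3 and Rab14 had TBI means from 6.48 to 7.85. With normexp all 12 shrank by more than 1.5 times, to between -1.20 and -0.53. Krt222, a keratin-like protein, was at 7.51, 7.08 and 7.24 in TBI and at 4.74, 3.97 and 4.78 in TBI+PMI-006 (-2.78 ± 0.674, adjusted p = 0.0158). It was at 7.48, 4.08 and 7.26 in Naïve rats, and above background on 2 of 3 Naïve and 0 of 2 Sham arrays. Noxo1, an organizer of NADPH oxidase, was at 7.43, 5.69 and 7.65 in TBI and at 4.17, 4.24 and 5.08 in TBI+PMI-006 (-2.43 ± 0.552, adjusted p = 0.0121) and above background on no Sham or Naïve array. Cyb5rl, a reductase-like gene, had the tightest replicates, at 6.27, 6.41 and 6.56 in TBI and 4.43, 4.46 and 4.65 in TBI+PMI-006 (-1.90 ± 0.225, adjusted p = 0.000643). Tox, a nuclear protein of the HMG box family, differed by -2.04 ± 0.406 (adjusted p = 0.00693) at one probe and by 0.32 (adjusted p = 0.556) at the other. Its relative Tox3 was at -1.75 ± 0.437 (adjusted p = 0.0179). Map3k1, a kinase upstream of JNK, Plag1, a zinc finger transcription factor, and Actn3, the alpha-actinin of fast muscle, were at -1.67, -1.69 and -1.75. Grm6, a metabotropic glutamate receptor best known from retina, Sectm1a, Cxadrl1 and Albfm1 were at -1.69, -1.68, -1.76 and -1.73, with adjusted p of 0.00178, 0.00755, 0.000427 and 0.0351. The call of Albfm1 was lost in 9 of 19 alternatives.

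**Figure D3:**
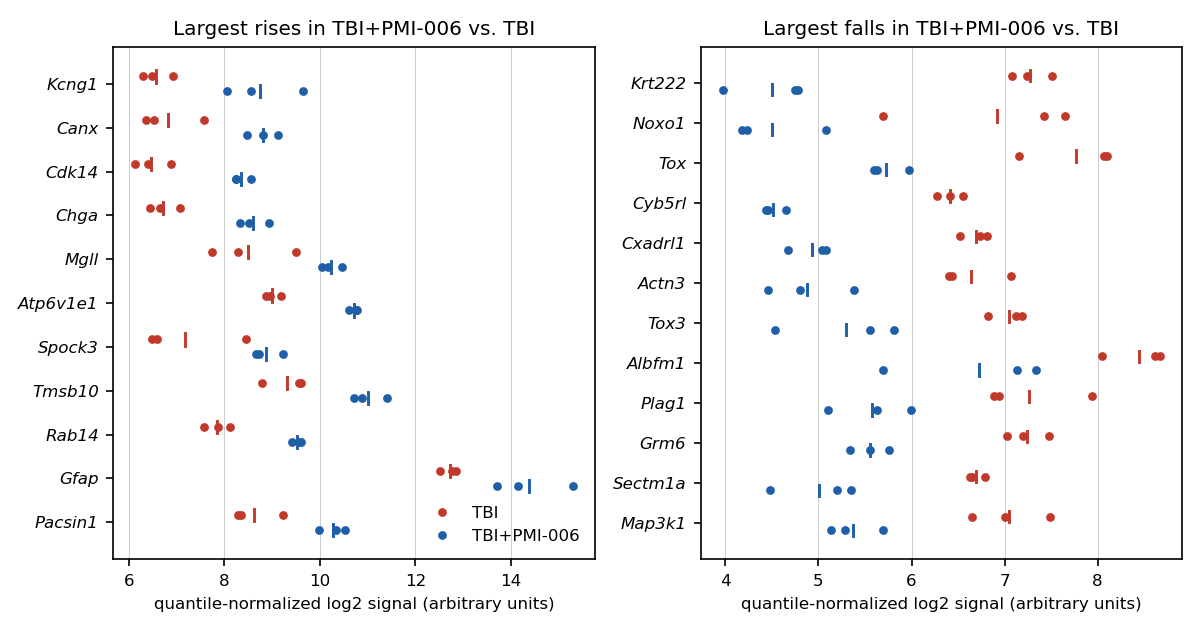
Normalized log2 signal on the 3 TBI arrays (red) and 3 TBI+PMI-006 arrays (blue) for the largest rises (left) and the 12 largest falls (right), 1 point per rat, with a bar at the group mean. The groups do not overlap for any of these genes, which the rule for naming them required, and the falls start between 5.69 and 8.67.

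Of the 15 GABA-A receptor subunits listed, 12 were tested, and 4 rose (33.3%, against 7.29% of all genes) while 0 fell. The median of the 12 was 0.518, above 77.8% of probes. Gabrb1, a beta subunit, was at 12.21, 12.01 and 12.08 in TBI and 12.20, 12.18 and 11.92 in TBI+PMI-006, and the groups overlapped. Of the alpha subunits, which with beta subunits form the GABA site, Gabra2 was at 8.50, 7.31 and 7.74 in TBI against 8.40, 9.17 and 9.11 in TBI+PMI-006 (1.04 ± 0.314, adjusted p = 0.0374), and replicate 1 of TBI overlapped with TBI+PMI-006. Gabra4, found mostly outside synapses together with the delta subunit, was at 8.64, 7.43 and 8.25 against 9.30, 9.15 and 8.94 (1.02 ± 0.316, adjusted p = 0.042). The calls of Gabra2 and Gabra4 were lost in 6 and 10 of 19 alternatives. Gabrd, the delta subunit itself, was at 9.64, 9.31 and 9.496 against 8.10, 8.88 and 9.34, with adjusted p = 0.176. The summed level of the subunits ranged from 12.98 to 13.41 in TBI rats and from 13.46 to 13.57 in TBI+PMI-006 rats. It was 13.50 to 13.69 in Sham and 12.68 to 13.89 in Naïve rats. In the other drug-treated rats, scanned with the TBI+PMI-006 rats, it was 13.36 to 13.5 (TBI+JM6) and 13.33 to 13.39 (TBI+E2). Without replicate 1 of TBI 5 subunits rose, and without replicate 1 of TBI+PMI-006 3 rose.

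Synaptic vesicle genes gave a like count. Of 21 tested, 7 rose (33.3%) and 0 fell, with a median of 0.235, above 66.1% of probes. Among proteins of the vesicle surface, Syn1, synapsin I, which tethers vesicles in the reserve pool, was at 10.73, 9.11 and 9.51 in TBI and at 10.90, 11.08 and 11.19 in TBI+PMI-006 (1.27 ± 0.33, adjusted p = 0.0206), and Syn2 rose by 1.18 ± 0.275 (adjusted p = 0.0135). Slc17a7, the vesicular glutamate transporter VGLUT1 of hippocampal excitatory neurons, was at 10.03, 8.51 and 9.35 in TBI and at 10.35, 10.76 and 10.50 in TBI+PMI-006 (1.24 ± 0.3, adjusted p = 0.0156). TBI+PMI-006 arrays were close together for both genes and TBI arrays were spread, replicate 1 of TBI being the highest of its group. Rab3a, a GTPase of vesicle docking, and Sv2b, a vesicle glycoprotein, rose by 0.73 ± 0.236 and 0.58 ± 0.158 (adjusted p = 0.0494 and 0.0249). The calls of Rab3a and Sv2b were lost in 11 and 8 of 19 alternatives, and that of Syn1 in 6. Rims1, an active zone scaffold that acts in docking, was at 8.09, 6.25 and 6.68 in TBI against 8.28, 8.64 and 8.40 in TBI+PMI-006 (1.43 ± 0.348, adjusted p = 0.0159). The core fusion genes did not pass. Snap25 was at 14.57, 13.77 and 13.92 against 14.16, 14.34 and 14.38, Vamp2 at 12.97, 12.43 and 12.63 against 12.54, 12.66 and 12.87, and Syp, the membrane marker synaptophysin, at 13.81, 13.17 and 13.47 against 13.50, 13.60 and 13.76. Slc17a6, the VGLUT2 transporter that is typical of thalamic and other subcortical neurons, was at 8.30, 9.31 and 8.91 against 8.22, 7.79 and 7.58 (adjusted p = 0.0943). Without replicate 1 of TBI 9 vesicle genes rose, and without replicate 1 of TBI+PMI-006 6 rose. The summed level of the vesicle genes was 16 to 16.65 in TBI and 16.43 to 16.67 in TBI+PMI-006, and the groups overlapped. Sham means of Syn1 and Slc17a7 were 10.99 and 10.58, and Naïve means 9.85 and 9.35.

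Promoters of the vesicle genes that rose are shown as sequence context. The genes were picked for having risen, and their promoters were not compared with those of other vesicle genes. RefSeq entries of build GRCr8 were found for 6 of the 7, and the 250 bases before the start were searched on both strands for the GC box GGGGCGGGG, the cyclic AMP response element TGACGTCA, the EGR site GCGTGGGCG and the left part of the RE1 element TTCAGCACC. Of 27457 promoters of this length, 9.74%, 1.7%, 0.514% and 0.317% hold them. The 4 with a match follow, on the coding strand, 5′ to 3′, with the match in capitals. Syn1 lies at chrX:3725495-3725744 (+) with a cyclic AMP response element 190 bases before the start, Slc17a7 at chr1:104785955-104786204 (+) with overlapping GC boxes 48 and 43 bases before it, Rims1 at chr9:32692773-32693022 (-) with a GC box 193 bases before it, and Rab3a at chr16:18722274-18722523 (-) with GC boxes 139 and 46 bases before it.
Syn1: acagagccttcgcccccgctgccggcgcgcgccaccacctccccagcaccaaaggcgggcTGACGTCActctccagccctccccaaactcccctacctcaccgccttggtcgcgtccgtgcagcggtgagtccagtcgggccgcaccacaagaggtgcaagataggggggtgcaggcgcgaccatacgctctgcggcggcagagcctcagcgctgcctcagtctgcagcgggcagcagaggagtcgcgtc
Slc17a7: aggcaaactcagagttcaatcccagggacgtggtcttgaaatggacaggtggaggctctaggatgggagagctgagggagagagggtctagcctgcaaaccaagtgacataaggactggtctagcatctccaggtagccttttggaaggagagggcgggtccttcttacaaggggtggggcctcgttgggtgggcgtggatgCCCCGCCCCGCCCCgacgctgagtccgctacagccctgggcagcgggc
Rims1: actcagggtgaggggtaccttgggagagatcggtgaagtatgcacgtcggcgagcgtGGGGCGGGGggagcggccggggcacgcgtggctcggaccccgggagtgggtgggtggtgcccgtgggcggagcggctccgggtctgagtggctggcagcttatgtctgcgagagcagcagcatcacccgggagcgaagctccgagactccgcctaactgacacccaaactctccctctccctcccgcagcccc
Rab3a: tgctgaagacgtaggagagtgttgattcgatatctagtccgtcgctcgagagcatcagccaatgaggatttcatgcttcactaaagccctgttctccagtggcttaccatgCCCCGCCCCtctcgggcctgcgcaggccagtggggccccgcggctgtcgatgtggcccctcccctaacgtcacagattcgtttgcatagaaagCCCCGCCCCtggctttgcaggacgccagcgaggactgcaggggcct
These matches describe the letters only. Sv2b and Syn2 held none of the 4 motifs in this window.

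**Figure D4:**
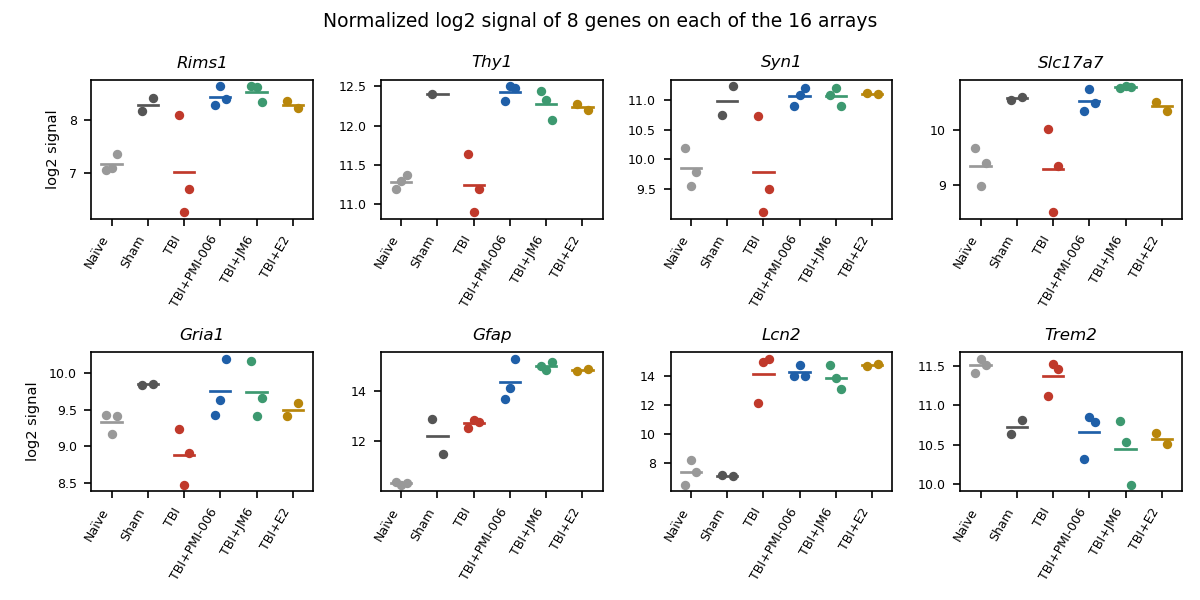
Normalized log2 signal of 8 genes on each of the 16 arrays, 1 point per rat, with a line at the mean of each group (6 groups, from Naïve on the left to TBI+E2 on the right). Rims1, Thy1, Syn1, Slc17a7 and Gria1 have lower means in TBI than in TBI+PMI-006. For Gfap the means of the 3 drug-treated groups lie above that of TBI, at 14.382 in TBI+PMI-006, 14.995 in TBI+JM6 and 14.855 in TBI+E2.

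Of the 14 AMPA, kainate and NMDA receptor subunits tested 3 rose (21.4%) and 0 fell, with a median of 0.10. Most of these subunits form channels that glutamate opens. Their summed level was 14.38 to 14.67 in TBI and 14.46 to 14.64 in TBI+PMI-006, and the groups overlapped. Grin1, the subunit that every NMDA receptor contains, was at 7.95, 7.10 and 7.16 in TBI and at 8.38, 8.45 and 8.36 in TBI+PMI-006 (0.99 ± 0.218, adjusted p = 0.0104), and its other probe rose by 1.56. Grin2a, the NR2A subunit of mature synapses, was at 7.50, 5.28 and 6.67 against 7.87, 7.89 and 7.94 (1.42 ± 0.427, adjusted p = 0.0382), with 2 of 3 TBI arrays above background. Gria1, the AMPA receptor subunit GluA1, was at 9.24, 8.48 and 8.92 against 9.43, 9.63 and 10.20 (0.88 ± 0.246, adjusted p = 0.029). The 3 genes did not overlap between groups, which in this direction was also so for 1987 of the 13868 genes tested. With normexp Grin1 was at 0.45 and not called (adjusted p = 0.109), and the calls of Grin2a and Gria1 were lost in 7 of 18 and 6 of 19 alternatives. Gria3 was at 13.31, 12.96 and 13.17 against 12.79, 12.78 and 12.84 and did not pass (adjusted p = 0.104). Of 7 metabotropic receptors, Grm5, coupled to calcium release in pyramidal cells, rose by 1.81 ± 0.471 (adjusted p = 0.021), from 6.87, 4.78 and 6.49 to 7.34, 8.10 and 8.13, with 2 of 3 TBI arrays above background.

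Ion channel genes went either way. Of 23 sodium and calcium channel genes, 4 rose (17.4%, against 7.29% of all genes) and 2 fell (8.7%, against 9.91%). Of the rises, 2 were of genes above background on no TBI array. Cacna1d, the L-type calcium channel Cav1.3, was at 6.23, 6.42 and 6.41 against 7.14, 7.57 and 7.32 (0.99 ± 0.172, adjusted p = 0.00358), with 2 of 3 TBI arrays above background. Scn3a and Cacna2d2 were above background on 0 of 3 TBI and 3 of 3 TBI+PMI-006 arrays and were at least 1.24-fold and 1.2-fold higher (adjusted p = 0.0221 and 0.00456). The calls of Cacna1d and Cacna2d2 were lost with normexp, at 0.32 and 0.35 (adjusted p = 0.0957 and 0.061). Such bounds set the TBI+PMI-006 mean against the lowest signal above background on each TBI array, or the probe's own where that was higher. The pore subunits Scn1a (Nav1.1) and Cacna1b (Cav2.2) fell, Scn1a at 10.16, 10.39 and 10.28 against 9.56, 9.77 and 9.72 (-0.59 ± 0.146, adjusted p = 0.0171) and Cacna1b at -0.56 ± 0.145 (adjusted p = 0.0206), whose other probe differed by 0.85 (adjusted p = 0.291). Of 26 potassium channel genes 3 rose (11.5%) and 1 fell (3.85%). Hcn2, a pacemaker channel, was at 7.05, 5.56 and 5.88 against 7.32, 7.52 and 8.09 (1.48 ± 0.344, adjusted p = 0.0132) with 2 of 3 TBI arrays above background, and Kcnj4, the inward rectifier Kir2.3, rose by 0.98 ± 0.289 (adjusted p = 0.0353), a call lost in 9 of 19 alternatives. The third potassium channel gene that rose, Kcnj10, was below the detection limit in all TBI rats, and no fold is given since its bound was under 1.

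Of 31 axon guidance genes tested 6 rose (19.4%, against 7.29% of all genes) and 2 fell (6.45%, against 9.91%). As 4 of the 6 were above background on no TBI array, their count is no support for a rise of the list. Among the 25 genes above background on at least 1 array of both groups 2 rose and 2 fell. Of all 11836 such genes, 599 rose and 1318 fell. Unc5b, a netrin receptor, and Nrp2, a semaphorin receptor, were not above background on any TBI array and were at least 2.06-fold and 2.46-fold higher in TBI+PMI-006 (adjusted p = 0.00381 and 0.0129). Nrp2 read 4.54, 5.15 and 5.22 in TBI and 6.86, 6.83 and 6.60 in TBI+PMI-006. Robo1, the receptor for Slit proteins, was at 6.35, 5.80 and 6.29 against 7.20, 7.31 and 7.25 (1.11 ± 0.273, adjusted p = 0.0171), and the ligand Efna2 rose by 0.80 ± 0.195 (adjusted p = 0.0159). Of the other genes that rose, Sema3a and Plxna4 were below the detection limit in all TBI rats, and no fold is given. Unc5c, another netrin receptor, was at 8.54, 8.79 and 8.87 against 7.96, 7.88 and 8.23 (-0.71 ± 0.168, adjusted p = 0.014), and the ligand Slit3 was at -0.40 ± 0.107 (adjusted p = 0.0232), a call lost in 7 of 19 alternatives.

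**Figure D5:**
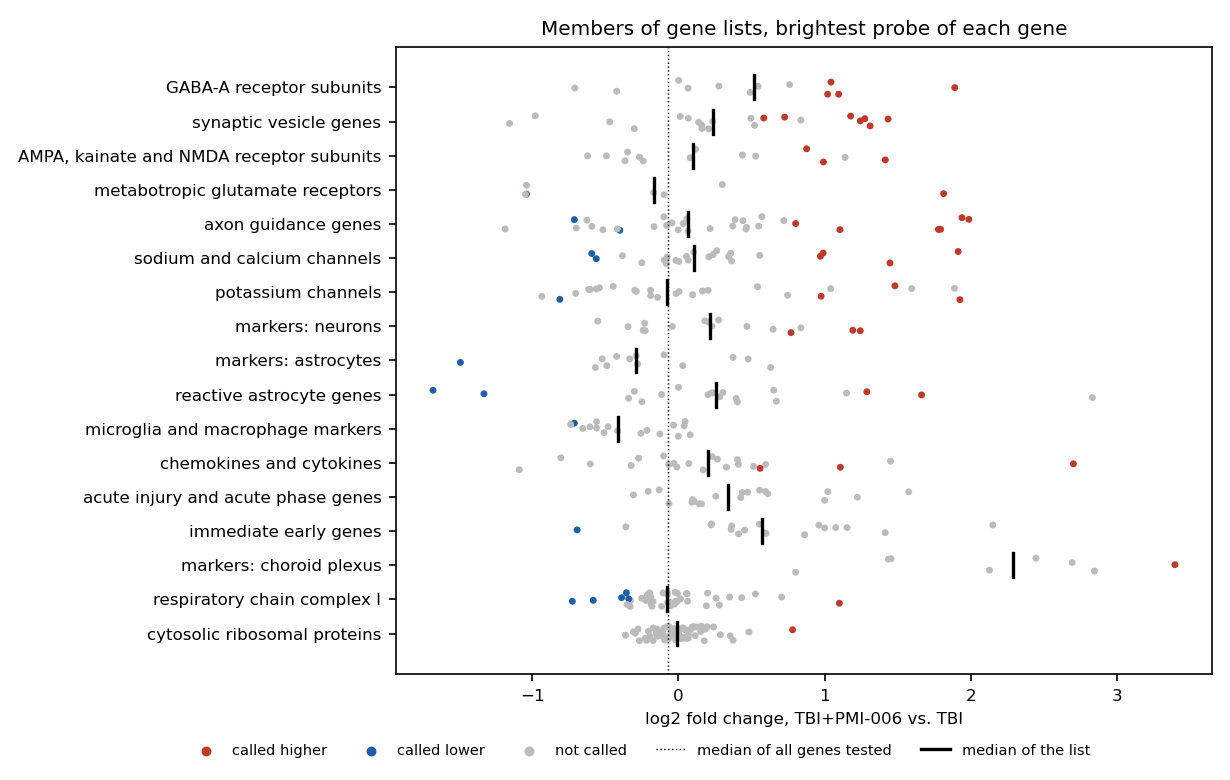
Log2 fold change (TBI+PMI-006 vs. TBI, brightest probe) of each tested gene of 17 gene lists, with called genes in red (higher) and blue (lower), the median of each list as a black bar and the median of all genes, -0.072, as a dotted line. GABA-A receptor subunits and synaptic vesicle genes hold called genes on the right side only, while microglial genes lie mostly left of the dotted line.

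Few cell type markers were called. Of 16 neuronal markers 3 rose (18.8%, against 7.29% of all genes) and 0 fell, and their summed level was 15.95 to 16.36 in TBI and 16.22 to 16.26 in TBI+PMI-006. Beside Slc17a7, these were Thy1, a surface protein of projection neurons, at 11.64, 10.89 and 11.19 in TBI and 12.31, 12.50 and 12.48 in TBI+PMI-006 (1.19 ± 0.177, adjusted p = 0.00231), and Gad2, a GABA-synthesizing enzyme (0.77 ± 0.208, adjusted p = 0.0244). Gad1, the other such enzyme, was at 11.86, 12.26 and 12.12 against 11.65, 11.84 and 11.73 (adjusted p = 0.125). Of 13 astrocyte markers 0 rose and 1 fell, with a median of -0.288. That was Gjb6, connexin 30 of astrocyte gap junctions, at 11.24, 10.15 and 10.47 against 8.35, 9.38 and 9.65 (-1.49 ± 0.467, adjusted p = 0.0435), with replicate 1 of TBI+PMI-006 the lowest array and the call lost in 8 of 19 alternatives. Without replicate 1 of TBI 2 astrocyte markers rose and 0 fell, and without replicate 1 of TBI+PMI-006 0 were called. Without both arrays 2 rose and 0 fell, at a median of -0.085, so the direction of the calls rested on these arrays. The summed level of astrocyte markers was 16.72 to 17.28 in TBI and 16.66 on each TBI+PMI-006 array. Of 12 endothelial markers only Cdh5, VE-cadherin, was called (1.06 ± 0.209, adjusted p = 0.00679).

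Of 20 reactive astrocyte genes tested, 2 rose (10%) and 2 fell. S1pr3, a sphingosine phosphate receptor of reactive astrocytes, rose with Gfap, from 7.42, 7.27 and 7.67 to 9.15, 8.81 and 8.27 (1.29 ± 0.26, adjusted p = 0.00739), and its Sham and Naïve means were 5.37 and 5.28. Vim, the intermediate filament vimentin, was at 11.28, 12.16 and 12.15 against 12.88, 13.35 and 12.81 and did not pass (adjusted p = 0.0889), nor did Hspb1 at 14.42, 15.17 and 15.51 against 15.74, 15.53 and 14.55. Of 17 microglia and macrophage markers 0 rose and 1 fell (5.88%), while the median of -0.415 lay above 20.8% of probes. Trem2, a lipid receptor of microglia, was at 11.11, 11.52 and 11.46 in TBI and at 10.32, 10.86 and 10.79 in TBI+PMI-006 (-0.71 ± 0.207, adjusted p = 0.0332), and at a mean of 10.7 in Sham and 11.5 in Naïve rats. Without replicate 1 of TBI+PMI-006 0 of the 17 were called. The summed microglial level ranged from 16.07 to 16.32 in TBI rats and from 15.65 to 15.84 in TBI+PMI-006 rats. It was 15.42 to 15.98 in Sham and 15.51 to 15.64 in Naïve rats. In the other drug-treated rats, scanned with the TBI+PMI-006 rats, it was 15.61 to 15.97 (TBI+JM6) and 15.8 to 15.85 (TBI+E2).

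Of 22 chemokines and cytokines 3 rose (13.6%, against 7.29% of all genes) and 0 fell (against 9.91%). Cxcl11, a ligand of the receptor Cxcr3, was not above background on any TBI array, at 2.90, 4.69 and 5.23, and was detected in TBI+PMI-006 at 6.91, 7.05 and 6.97, at least 2.89-fold higher (adjusted p = 0.00521). Its relative Cxcl9, above background on 2 of 3 TBI arrays, rose by 1.11 ± 0.351 and Tgfb1 by 0.56 ± 0.167 (adjusted p = 0.0453 and 0.0367), and both calls were lost without replicate 1 of either group, when 1 gene of the list was called. Ccl2, the main monocyte attractant, was at 11.36, 12.45 and 11.95 in TBI and 13.51, 12.36 and 11.11 in TBI+PMI-006, against means of 5.31 in Sham and 5.71 in Naïve rats. Il1b read 4.36, 7.44 and 6.82 against 6.43, 6.97 and 6.22. Of 20 acute injury and acute phase genes 0 were called by limma in either direction and 1 had an unadjusted p under 0.05. Lcn2, the acute phase protein lipocalin 2, was at 12.15, 15.002 and 15.23 in TBI and at 14.03, 14.76 and 14.03 in TBI+PMI-006, far above the Sham mean of 7.13 in both groups. The median of these 20 genes was 0.342 on all arrays and -0.315 without replicate 1 of both groups, so its sign rested on those rats. Among immediate early genes 0 rose and 1 of 18 fell, Homer1, at 10.54, 10.50 and 10.89 against 10.11, 9.88 and 9.87 (-0.69 ± 0.167, adjusted p = 0.0155). Their median was 0.571, and -0.115 without replicate 1 of TBI+PMI-006. Of the 8 choroid plexus genes 1 was called, the clotting factor F5, which was above background on 0 of 3 TBI and 2 of 3 TBI+PMI-006 arrays and at least 1.18-fold higher (adjusted p = 0.0494). Without replicate 1 of TBI+PMI-006 0 were called, and their median went from 2.29 to 0.014.

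Among metabolic and housekeeping lists, respiratory chain complex I had 1 of 45 genes higher (2.22%, against 7.29% of all genes) and 5 lower (11.1%, against 9.91%). Its median was -0.075, against -0.072 for all genes. Ndufa7, an accessory subunit of complex I, was at 10.33, 10.26 and 10.65 in TBI and at 9.73, 9.75 and 9.58 in TBI+PMI-006 (-0.73 ± 0.146, adjusted p = 0.0074). With the 75th percentile scaling, relative to all probes, 23 of the 45 fell. Uqcrq of complex III, above background on 2 of 3 TBI+PMI-006 arrays, was at -1.71 ± 0.223 (adjusted p = 0.00104). Cytosolic ribosomal protein genes had 1 of 75 higher and 0 lower, a median of -0.012, and under the other scaling 51 lower, so the call for these bright probes depended on the scaling. In the kynurenine pathway, by which tryptophan is turned into neuroactive acids, 0 of 9 rose and 2 fell (22.2%). Aadat, which makes kynurenic acid, was at 9.70, 9.38 and 9.30 against 8.59, 8.92 and 8.38 (-0.83 ± 0.192, adjusted p = 0.0131), and Haao, an enzyme on the way to quinolinic acid, was above background on 1 of 3 arrays in either group, so that the size of its fall was not measured (adjusted p = 0.0198, lost in 8 of 17 alternatives). Of 25 BCL2 family and caspase genes 2 rose (8%) and 1 fell (4%). The survival factor Mcl1 rose from 8.32, 8.49 and 7.68 to 9.84, 9.28 and 8.81 (1.15 ± 0.303, adjusted p = 0.0224), a call lost in 8 of 19 alternatives. Of 12 calpains and related genes 1 rose (8.33%) and 2 fell (16.7%), and of 22 PI3K and AKT pathway genes 2 rose (9.09%) and 2 fell (9.09%). Among the latter was the endosomal kinase Pik3c3, at 10.50, 10.36 and 10.76 against 9.84, 9.79 and 9.48 (-0.84 ± 0.144, adjusted p = 0.00345). Ep300, a histone acetyltransferase that works with CREB, was at -0.91 ± 0.169 (adjusted p = 0.00475), and Eif2ak3, the stress kinase PERK, at -0.68 ± 0.141 (adjusted p = 0.00815), the only 1 of 15 unfolded protein response genes called. Of 19 heat shock and 20 circadian clock genes 0 were called by limma, with 0 and 5 at an unadjusted p under 0.05.

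Rats given the other drugs were scanned with the TBI+PMI-006 rats, so that what differed between PMI-006 and those drugs was tested within a session. Doses, routes and compounds differ, and the comparison is of these treatments as given. The 3 TBI+PMI-006 arrays shared slide 1 with replicate 1 of TBI+JM6, while the other 4 arrays of the other drugs were on slide 2, so that drug and slide were largely confounded. TBI+PMI-006 vs. the mean of TBI+JM6 and TBI+E2 gave 1 called probe of 22824 (0.00438%), while 2510 probes (11%) had an unadjusted p under 0.05. Against TBI+JM6 alone and TBI+E2 alone 0 probes were called by limma, with 1642 and 2385 at an unadjusted p under 0.05. The single called probe is named only by its identifier A_64_P073048 and lies at chr9:104270477-104270536 of build rn4. Its log2 signal was 3.62, 3.34 and 4.33 in TBI+PMI-006, 5.49, 5.47 and 5.56 in TBI+JM6 and 5.75 and 5.23 in TBI+E2 rats, a difference of -1.73 ± 0.204 (adjusted p = 0.0438). It was above background on 1 of 3 TBI+PMI-006 arrays and on none of the TBI, Sham or Naïve arrays, so that the difference is not a measured size, and no gene is paired with it here. The call was kept in 9 of the 21 alternatives that tested the probe.

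The comparisons of each drug group with TBI share the TBI arrays and the session, so their values are given side by side only. TBI+JM6 vs. TBI gave 6208 called probes (27.2%) and TBI+E2 vs. TBI 4658 (20.4%). Syn1 differed from the other drug groups by -0.03 (95% interval -0.69 to 0.64) and Slc17a7 by -0.07 (-0.68 to 0.53). These intervals include 0, and they do not show that the drugs act alike on these genes. Gfap was at -0.54 (-1.29 to 0.21), with 1.66 against TBI for PMI-006, 2.27 for JM6 and 2.13 for E2. Kcng1 was at -0.94 (-1.86 to -0.01, adjusted p = 0.436), Trem2 at 0.14 (-0.27 to 0.56), Cxcl11 at 0.18 (-0.84 to 1.2) and Atp6v1e1 at 0.15 (-0.10 to 0.40). Tox and Map3k1 had lower means in TBI+PMI-006 than in both other groups, at -1.05 (-1.86 to -0.23) and -0.94 (-1.72 to -0.17), with adjusted p of 0.337 and 0.345. For Tox the arrays overlapped, with replicate 1 of TBI+PMI-006 at 5.968 and replicate 1 of TBI+JM6 at 5.895. Of 834 tested genes in the 44 gene lists, 0 were called by limma in this comparison and 65 had an unadjusted p under 0.05.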

How the data were processed

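RNA from 16 hippocampi was hybridised to 1-colour Agilent rat arrays, 1 rat per array, on 4 slides of 4 arrays. Per the file headers, the authors' scanner files were made with Feature Extraction 9.5.3.1 and hold background-corrected, spatially detrended intensity per spot with probe positions on build rn4. The authors also deposited a matrix of linear ratio values, made according to the methods by scaling to the 75th percentile of detected signals, with a median of 0.14, and it served as an alternative only. Here the deposited intensity was averaged over the spots of a probe, taken as log2 and quantile-normalized (R 4.3.3, limma 3.58.1, data.table version 1.17.8). Of 30367 probes, 22827 entered the test because all arrays of some group had them above background. Gene symbols were matched by accession or name to RefSeq, and 31.9% of probes stayed unnamed. All 16 arrays entered 1 limma fit with 6 groups, 10 residual degrees of freedom, moderated by eBayes, with Benjamini-Hochberg adjustment over all probes and calls at an adjusted p under 0.05. A gene was represented by its brightest probe. Named genes are the 12 largest rises and 12 largest falls among called genes above background on all 6 arrays whose groups did not overlap, plus called members of gene lists, and some of these genes are not reported here. The comparison, its members and the 44 gene lists were chosen with earlier results of these data known. Replicates were separate rats, and their number limits the precision. Summed levels are the log2 of the summed linear signal of a list. The test was tested on simulated data of 21901 probes with 200 changed. In TBI+PMI-006 vs. TBI it recovered 78% of 4-fold and 41% of 2-fold changes. The simulated arrays had independent noise and no session effect, so these shares do not describe the measured comparison. Alternatives covered scaling, background correction, filters, array weights, slide, replicate block, the methods' t-test and leaving out each TBI and TBI+PMI-006 array. The TBI+JM6 and TBI+E2 arrays were left out in turn in the within-session comparison, an alternative chosen after seeing the data. Figures were drawn with matplotlib 3.10.9.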

Additional observations from a re-analysis of the deposited data

Results flagged for a closer look

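Probe A_64_P073048, which no gene is paired with here, was lower in TBI+PMI-006 than in the other drug-treated rats by a test of that difference, at -1.73 ± 0.204 (limma adjusted p = 0.0438, 95% interval -2.19 to -1.28). It lay below both other groups on 3 of 3 TBI+PMI-006 arrays but was above background on 1 of them only, so that the difference is not a measured size. The call was kept in 9 of the 21 alternatives that tested the probe. It was lost with normexp (-0.57, adjusted p = 0.0963), with no filter, with only the compared groups in the fit, and without any 1 of 8 arrays, which were all TBI arrays, TBI+PMI-006 replicates 1 and 2, TBI+JM6 replicates 2 and 3 and TBI+E2 replicate 1.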

How the results depend on the processing

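TBI+PMI-006 vs. TBI gave 4377 called probes and TBI+PMI-006 vs. the mean of TBI+JM6 and TBI+E2 gave 1. With the 75th percentile of detected probes these became 12946 (12935 higher, 11 lower) and 17, and with that of all probes 8165 (5428 higher, 2737 lower) and 4. Taking out the shift of the overall median, an alternative chosen after seeing the data, the first count became 6786 (3764 higher, 3022 lower). Array weights gave 7144 and 437, and slide as a random block 6906 and 92. Only the compared groups in the fit gave 1802 and 0. The methods' t-test gave 539 and 0 after Benjamini-Hochberg adjustment, 2116 for the second comparison unadjusted with their fold limit, and with unequal variances 1 and 0. A 2-fold limit on top of the adjusted p left 2104 for the first. For the second, a filter on TBI or TBI+PMI-006 and no filter each gave 0, the authors' matrix 4, slide as a fixed block 5, and TBI+JM6 alone or TBI+E2 alone 0. Leaving out 1 array gave 2277 to 4716 for the first, with 2277 without TBI replicate 3, 2755, 2580 and 2903 without TBI+PMI-006 replicates 1, 2 and 3, and 0 to 149 for the second, with 149 without TBI+PMI-006 replicate 3. In that comparison, leaving out TBI+JM6 or TBI+E2 arrays, chosen after seeing the data, gave 0 to 20, and where 1 TBI+E2 array was left it was assumed to vary like the other groups. Without replicate 1 of both groups, also added after seeing the data, 3362 were called. The cause of these shifts was not tested.

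With the replicate number as a block, 0 probes were called in either comparison. Deviations of same-numbered TBI and TBI+PMI-006 arrays correlated at 0.072, 0.078 and 0.029, and those of unlike numbers at -0.111 to 0.051. With 3 rats a group these values cannot decide whether the numbers pair rats. The labels give the numbers and name no pairing.

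Over the named genes, 1087 repeats kept direction and call, 281 kept the direction but not the call, and none reversed. The repeats left out the scaling to the 75th percentile of detected probes with its overall shift kept. Under that scaling the largest falls given in the Results stayed negative but lost their calls. Their limma adjusted p ranged from 0.105 (Tox) to 0.456 (Map3k1). Among all probes, 134 were called there with the sign opposite to the main call, so the absence of reversals holds only for the repeats made. Of the gene list medians, 481 moved by less than the replicate spread and 91 by more. Dim probes limit the rest, since a signal near background gives only a bound.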
